A study of Mus musculus with 8 samples.

Results

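The gastrokines (Gkn1, Gkn2 and Gkn3) and the trefoil factors (Tff1, Tff2 and Tff3) are small proteins that mucous cells of the stomach and gut secrete together with mucins. These 6 genes were taken by symbol from a table of read counts for 53170 named genes, and all 6 were found there. The table comes from bulk RNA sequencing of organoids grown for 5 days in growth medium from hindstomach (glandular stomach) epithelium of mouse embryos at embryonic day 18.5. The 4 Control libraries have the genotype Shh-Cre, in which the Shh gene, expressed in gut epithelium, drives the recombinase. The genotype of the other 4 is Shh-Cre;YAP5SA: they add to that Cre a mutant YAP that the kinases of the Hippo pathway can no longer hold back. Both groups therefore carry the Cre. Nothing in the labels ties a library to an embryo or a culture of its own, and p-values here speak only to the spread among the 4 libraries of a group, which may be technical.

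Gastrokines share a BRICHOS domain and are made almost only in the stomach, Gkn1 and Gkn2 mainly by surface mucous (pit) cells and mouse Gkn3 by mucous neck cells. Trefoil factors carry compact domains held by disulfide bonds and take part in mucus structure and in the repair of injured epithelium. Tff1 belongs to pit cells and can pair with Gkn2 through a disulfide bond, Tff2 belongs to neck and gland mucous cells and binds the glycans of the gland mucin Muc6, and Tff3 belongs mainly to intestinal goblet cells, where it binds the mucus protein encoded by Fcgbp.

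The 3 gastrokine genes lie next to each other on mouse chromosome 6, and the RefSeq promoter table (build GRCm38.p6) held a start site for each of them. The 250 bases before each start are shown because RNA of all 3 genes was nearly lost in YAP5SA organoids and because genes of GATA factors, which bind GATAA, are among the regulators described below. The windows are chr6:87350916-87351165 on the minus strand for Gkn1, chr6:87373115-87373364 on the plus strand for Gkn2 and chr6:87388936-87389185 on the minus strand for Gkn3. Each is written 5′ to 3′ on the strand of its gene, with GATAA and its reverse complement TTATC in capitals.
Gkn1: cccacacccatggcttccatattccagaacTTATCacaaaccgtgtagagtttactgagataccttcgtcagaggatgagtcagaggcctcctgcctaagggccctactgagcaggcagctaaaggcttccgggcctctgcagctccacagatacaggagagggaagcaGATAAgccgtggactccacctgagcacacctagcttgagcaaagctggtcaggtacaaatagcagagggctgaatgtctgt
Gkn2: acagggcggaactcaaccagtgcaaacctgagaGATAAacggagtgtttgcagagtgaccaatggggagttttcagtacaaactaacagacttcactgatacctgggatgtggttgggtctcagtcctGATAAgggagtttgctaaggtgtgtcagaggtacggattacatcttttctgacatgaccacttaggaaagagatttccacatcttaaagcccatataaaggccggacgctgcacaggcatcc
Gkn3: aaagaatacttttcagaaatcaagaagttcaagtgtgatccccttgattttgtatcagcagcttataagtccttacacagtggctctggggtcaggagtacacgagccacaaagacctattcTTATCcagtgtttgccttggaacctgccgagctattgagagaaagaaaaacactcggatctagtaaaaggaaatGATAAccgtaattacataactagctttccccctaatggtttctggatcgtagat
Each of the 3 windows held GATAA or TTATC at 2 places, against 4.18% of 32536 windows of the same length in the table with 2 or more (22.5% with at least 1). Counted from the start site, they began at bases -220 and -81 in Gkn1, -217 and -122 in Gkn2, and -128 and -54 in Gkn3. On both strands, TGTTTAC (a letter string of FOXA sites), CAAAGTCCA (HNF4) and GGAATG (TEAD factors, the DNA-binding partners of YAP) had no match in the 3 windows, against 3.17%, 0.387% and 12.6% of all windows. TATAAA was found in Gkn2 alone, at base -29 (12.3% of all windows, both strands). These are letter matches in 1 window per gene, not measured binding. No promoter of Tff1, Tff2 or Tff3 is shown.

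The 8 libraries held between 13646225 and 19668033 counts on named genes. Levels are given in CPM, read counts scaled to the size of each library after TMM normalization, as mean ± SD (n = 4 libraries per group). Epithelial genes were high in both groups (Epcam 485.7 ± 47.2 CPM in controls and 640.4 ± 20.8 CPM in YAP5SA), but the stomach claudin gene Cldn18 was at 1353 ± 42 CPM in controls and at 2.05 ± 1.31 CPM in YAP5SA. Of 7 listed markers of gastric epithelium 2 rose, 4 fell and 1 was not called, where 23.6% of all tested genes rose and 25.5% fell. Among these markers Sox2, a stomach transcription factor, rose from 30.6 ± 1.7 to 47.6 ± 4.3 CPM. Mouse Yap1 had 160.0 ± 7.2 CPM in controls against 153.3 ± 4.2 CPM with the transgene, which does not check its expression, since the labels do not give the species of the transgene. Xist ranged from 675.6 to 1049 CPM in controls and from 0.41 to 2.76 CPM in YAP5SA, and 4 Y-linked genes had between 2 and 6 counts each over the controls and 2804 to 6735 counts each over the YAP5SA libraries. Sex and genotype therefore cannot be told apart in any result below. Nor can fewer cells of a type and less RNA per cell be told apart in bulk RNA.

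Gastrokine RNA was almost lost from the YAP5SA organoids. The 3 genes together made up 423.4 ± 77.3 CPM in controls and 1.13 ± 0.40 CPM in YAP5SA. Trefoil factor RNA fell less as a family, from a summed 78.8 ± 10.7 CPM to 4.46 ± 0.44 CPM, and its members parted, since Tff1 was nearly lost while Tff2 was still at 0.492 times its control level. Of the 6 genes, 5 were counted often enough to be tested (Tff3 was not), and all 5 were called lower in YAP5SA by edgeR (quasi-likelihood test, Benjamini-Hochberg adjustment over 14058 genes, threshold 0.05), where 25.5% of all tested genes were called lower and 49.1% were called in either direction. At a threshold of 0.01 all 5 were still called lower, against 20.4% of all tested genes. In the same 5 genes every YAP5SA library lay below every control library, which was so for 23.9% of all tested genes, with 45.7% free of overlap in either direction. Their median log2 fold change was -8.38, against 0.004 over all tested genes. A log2 fold change below -6 was found in 4 of them, Gkn1, Gkn2, Gkn3 and Tff1, and in 0.861% of all tested genes.

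**Figure D1:**
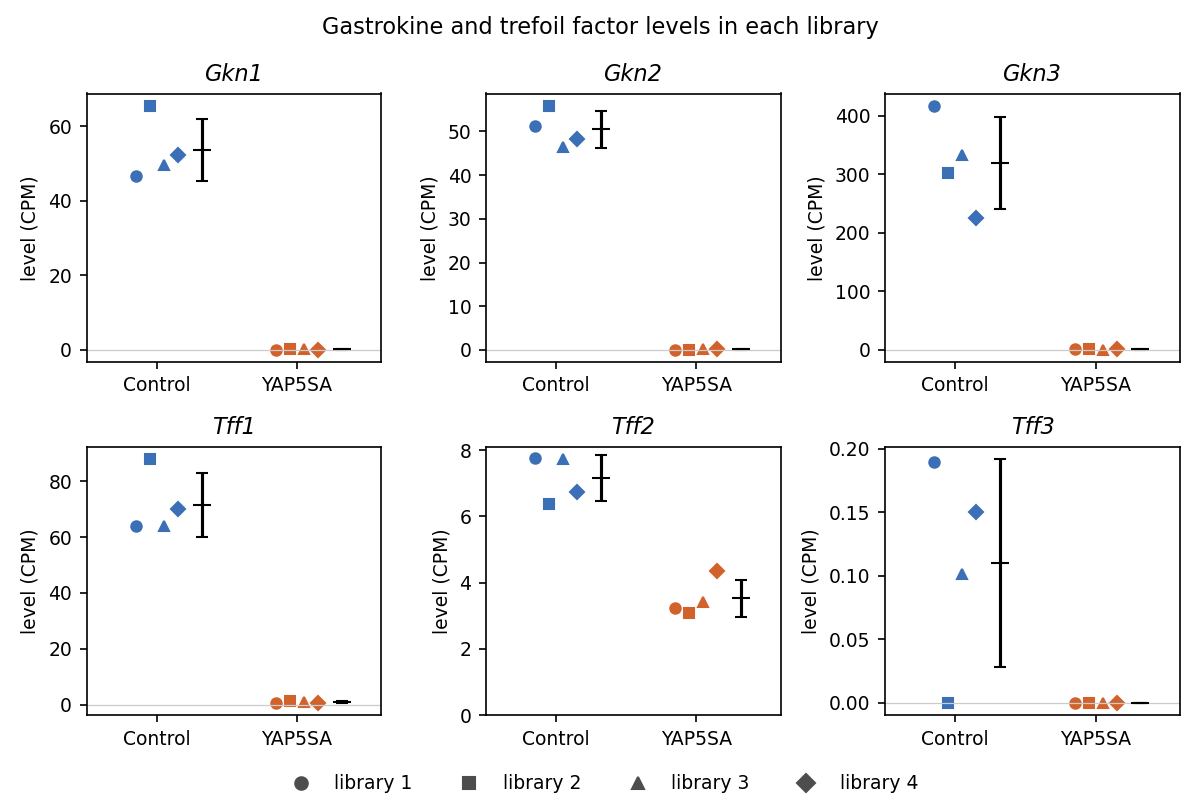
Level of each gene in CPM (vertical axis, linear, a scale of its own in each panel) in the 4 control (blue) and 4 YAP5SA (orange) libraries; symbols mark library numbers and the black bar is the mean ± SD of the 4. Gkn1, Gkn2, Gkn3 and Tff1 sit near 0 in YAP5SA, Tff2 sits between 3.09 and 4.36 CPM there, and Tff3 is below 0.2 CPM in every library.

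Among the pit cell gastrokines, Gkn1 had 46.6, 65.5, 49.6 and 52.4 CPM in controls 1 to 4 and 0, 0.166, 0.193 and 0 CPM in YAP5SA 1 to 4. The YAP5SA values stand for 0, 3, 3 and 0 reads, so the groups were far apart and the level left in YAP5SA is known only roughly. The log2 fold change was -9.09 ± 0.27 SE (adjusted p = 8.53e-14, edgeR), and the ratio of pooled levels, control over YAP5SA, was 592 with an exact 95% counting interval of 272 to 1615. Gkn2, whose product can bind Tff1, had 51.3, 55.9, 46.4 and 48.2 CPM in controls and 0.065, 0.055, 0.129 and 0.177 CPM in YAP5SA, from 1, 1, 2 and 3 reads. Its control libraries were the most even of the 3 gastrokines (coefficient of variation 8.24%), and no YAP5SA library came near them. The log2 fold change was -8.80 ± 0.18 SE (adjusted p = 7.64e-17, edgeR), and the pooled ratio was 477 (231 to 1187). Intervals of this kind cover counting error only. For both genes they are still wider than the SE implies. The SE is derived from the test statistic and understates how uncertain so low a YAP5SA level is.

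Gkn3, the neck cell gastrokine, was the most abundant of the 6 in controls, with 417.1, 303.0, 332.3 and 225.4 CPM. Among the 5 tested genes it also varied most there, by 1.85 times between control 1 and control 4 (coefficient of variation 24.8%, against 1.36% from counting alone). In YAP5SA it had 0.971, 1.49, 0.451 and 0.825 CPM, from 7 to 27 reads a library. No YAP5SA library approached the lowest control, and the log2 fold change was -8.38 ± 0.33 SE (adjusted p = 3.1e-07, edgeR). The gland genes Cblif (intrinsic factor) and A4gnt (the enzyme that caps the glycans of Muc6 with N-acetylglucosamine) were, like Gkn3, highest in control 1 and lowest in control 4, at 174.0 and 66.8 CPM for Cblif and 26.0 and 11.5 CPM for A4gnt. Muc6 did not share this order, with 93.5 CPM in control 4 and 44.5 to 56.4 CPM in the other controls. These 3 genes are set beside Gkn3 after their values were seen.

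Among the trefoil factors, Tff1 had 63.8, 87.9, 64.0 and 70.1 CPM in controls and 0.712, 1.27, 1.09 and 0.648 CPM in YAP5SA. Control 2 was the highest library for Tff1, as it was for Gkn1 and Gkn2. The log2 fold change of Tff1 was -6.24 ± 0.17 SE (adjusted p = 2.04e-14, edgeR), a 75.7-fold difference, and 62 reads over the YAP5SA libraries lay behind the low level. Tff2, the neck and gland cell trefoil factor, was already low in controls, with 7.77, 6.39, 7.74 and 6.75 CPM, and had 3.24, 3.09, 3.41 and 4.36 CPM in YAP5SA. The groups did not overlap, but the gap was small beside that of the other 4 genes. Its log2 fold change was -1.02 ± 0.16 SE (adjusted p = 3.14e-05, edgeR), a 2.03-fold difference. The spread of Tff2 over controls (coefficient of variation 9.75%) was close to that expected from counting alone (9.1%).

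Tff3, the goblet cell trefoil factor, was at the limit of detection. It had 3, 0, 2 and 2 reads in controls and 0 in every YAP5SA library. Control 2, with 0 reads, overlapped the YAP5SA libraries. With no filter on low counts Tff3 had an adjusted p of 0.0664 (edgeR, 27156 genes), so a difference was not detectable at this depth.

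Gene levels can be compared with each other only per length, and the lengths used here are those of the exons in the GENCODE M21 annotation, which need not be the models that the authors counted. Per kilobase, the order in controls was Gkn3 (373.2 ± 92.5 CPM per kb), Tff1 (101.7 ± 16.2), Gkn2 (64.0 ± 5.3), Gkn1 (42.8 ± 6.7), Tff2 (12.3 ± 1.2) and Tff3 (0.224 ± 0.166), and no neighbours in this order overlapped over the 4 libraries. In YAP5SA, Tff2 came first with 6.04 ± 0.98 CPM per kb and did not overlap the next gene. Tff1 (1.32 ± 0.43) and Gkn3 (1.09 ± 0.50) overlapped, as did Gkn2 (0.135 ± 0.073) and Gkn1 (0.072 ± 0.083). The longest identical run between transcripts of any pair in that annotation was 14 bases (Tff2 and Tff3).

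Within the trefoil family the larger share passed from Tff1 to Tff2, whereas the shares of the gastrokines overlapped between groups. Per kilobase, Tff1 made up 86.9% to 92.0% of trefoil factor RNA in the controls and 11% to 25.4% in YAP5SA, and Tff2 made up 8.04% to 12.7% in controls and 74.6% to 89.0% in YAP5SA. The ranges of both genes were wide apart. Gkn3 made up 71.9% to 82.6% of gastrokine RNA in controls and 62.3% to 93.2% in YAP5SA, where Gkn3 had only 7 to 27 reads a library.

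**Figure D2:**
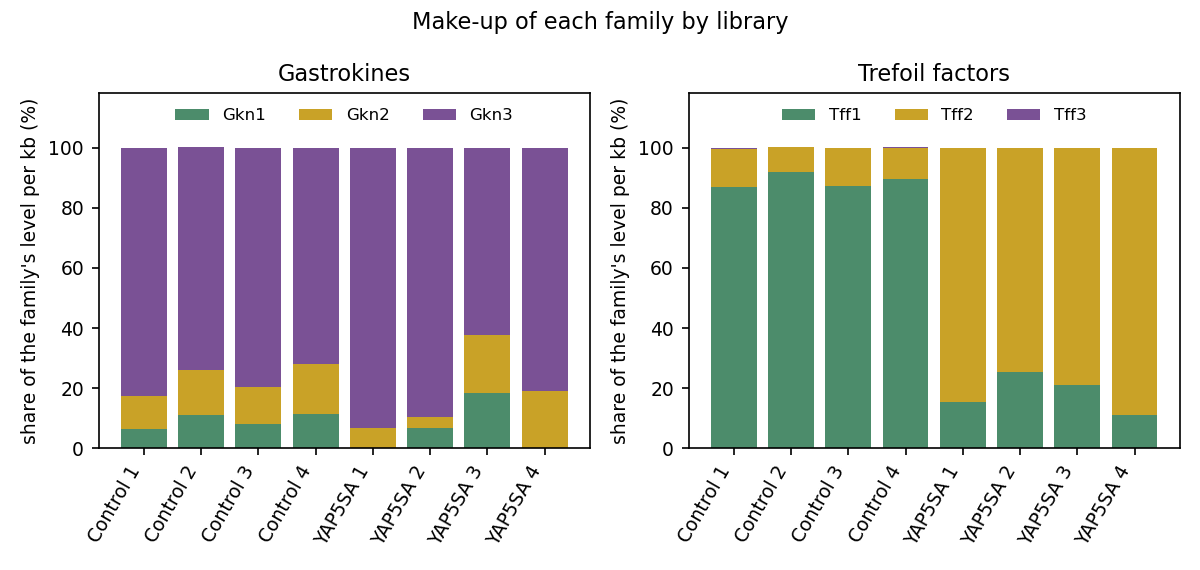
Share of each gene in the summed level per kilobase of its family (vertical axis, percent) in each of the 8 libraries, gastrokines on the left and trefoil factors on the right. Gkn3 is the largest part of the gastrokines in every library, whereas Tff1 gives way to Tff2 between the control and YAP5SA libraries.

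Whether members differed in their response was tested on the log2 ratio of a pair of genes within each library (log2 CPM with a prior count of 2). In this ratio the scaling of the libraries cancels, apart from the prior count. Of 10 pairs of the 5 tested genes, 7 differed between groups, each with an exact two-sided permutation p of 0.0286, the smallest that 4 against 4 libraries can give, and an adjusted p of 0.0408 over the 10 pairs. They are all the pairs that include a trefoil factor. Where reads were few, the size of a difference depended on the prior count. For Gkn1 to Tff1 it was -2.01, and -3.13 with a prior count of 0.5. The ratio of Tff1 to Tff2 fell from 3.29 ± 0.35 to -1.83 ± 0.58 on the log2 scale. The ratio of Gkn2 to its partner Tff1 fell from -0.49 ± 0.14 to -2.20 ± 0.66. That of Gkn3 to Tff2, both described above as neck cell genes, fell from 5.43 ± 0.29 to -1.87 ± 0.72. The 3 gastrokines were not told apart from each other: the differences in log2 ratio were -0.30 for Gkn1 to Gkn2 (exact permutation p = 0.571), 0.17 for Gkn1 to Gkn3 (p = 0.857) and 0.47 for Gkn2 to Gkn3 (p = 0.371). With a prior count of 0.5 these 3 differences were -0.76, -0.93 and -0.17: 2 of the 3 were larger and 2 of the 3 had the opposite sign, so with so few reads in YAP5SA the data do not show whether the 3 gastrokines fell alike.

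**Figure D3:**
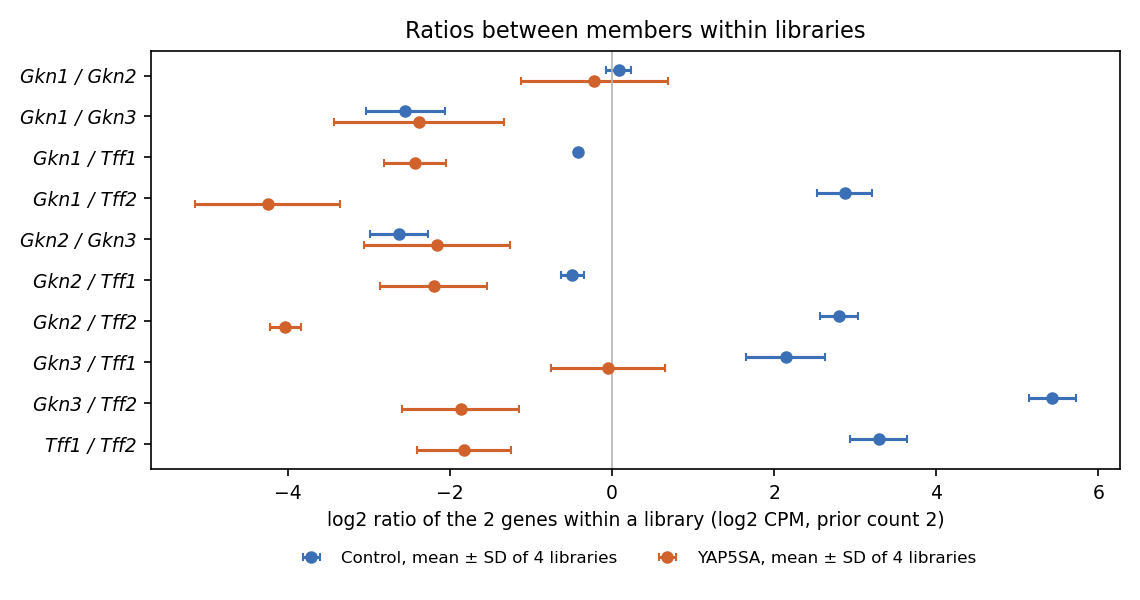
Log2 ratio of a pair of genes within a library (horizontal axis) for the 10 pairs of tested genes, as mean ± SD of the 4 control (blue) and 4 YAP5SA (orange) libraries. The 3 pairs of gastrokines overlap between groups, and each pair with Tff1 or Tff2 lies lower in YAP5SA.

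Other genes listed as products of mucous cells went both ways, and bulk RNA does not show which cells made them. Of 14 listed products of surface mucous cells, 9 were tested, 5 fell and 3 rose (median log2 fold change -0.95), where 25.5% of all tested genes fell and 23.6% rose. The 4 most abundant were Psca (262.2 ± 3.0 to 135.3 ± 28.3 CPM), a surface antigen, Anxa10 (396.5 ± 34.7 to 0.910 ± 0.607 CPM), a gastric annexin, Mucl3 (172.9 ± 42.1 to 4.58 ± 2.14 CPM), a mucin-like gene, all 3 lower in YAP5SA, and Muc1 (341.0 ± 41.4 to 476.5 ± 11.8 CPM), a membrane mucin, which was higher. Muc5ac, the secreted pit cell mucin whose product lies in mucus with Tff1, was low in both groups (0.722 ± 0.503 and 1.38 ± 0.50 CPM, adjusted p = 0.0654, edgeR). It passed as higher in YAP5SA without control 4 (adjusted p = 0.00701, edgeR) or without YAP5SA 1 (0.037), and with no filter on low counts (0.0332). Of 9 mucous neck and gland products, all tested, 6 fell and 3 rose (median -3.13). Of the 4 most abundant by mean over all 8 libraries, Aqp5 (a water channel), Wfdc2 (a secreted protease inhibitor) and Cd44 (a hyaluronan receptor) rose 2.08-fold, 2.0-fold and 1.15-fold. The other, Gpx2 (a glutathione peroxidase), fell from 789.3 ± 90.4 to 320.6 ± 16.2 CPM. Such a ranking sets back genes that were lost in YAP5SA. Pgc, of the same list and named after its values were seen, fell from 585.9 ± 65.2 to 1.08 ± 0.65 CPM. In controls Pgc lay above Aqp5, Wfdc2 and Cd44.

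Known or proposed partners of the trefoil factors also split, with 3 higher, 3 lower and 3 not past the test among 9 tested of 12 (median log2 fold change -0.18). Over all tested genes, 23.6% were higher and 25.5% lower. On the side of Tff2, Muc6 fell from 62.2 ± 21.5 to 0.343 ± 0.205 CPM, and A4gnt had 1200 reads over the controls and 0 over the YAP5SA libraries, at least 393-fold lower. Cxcr4, a chemokine receptor proposed for Tff2, fell from 4.88 ± 0.51 to 1.5 ± 0.38 CPM. On the side of Tff3, Fcgbp rose from 1.49 ± 0.65 to 34.0 ± 4.4 CPM, with 29.98 to 38.4 CPM in the 4 YAP5SA libraries against at most 2.4 CPM in a control. Muc2, the goblet cell mucin, rose from 0.897 ± 0.360 to 2.58 ± 0.46 CPM. Outside this list, the goblet cell markers Spdef and Clca1 fell, Clca1 from 4.70 ± 0.67 to 1.66 ± 0.71 CPM. Tff3 itself had 7 reads over the controls and 0 over the YAP5SA libraries, too few to set beside the rise of Fcgbp and Muc2. Egfr rose from 69.1 ± 6.3 to 97.1 ± 12.3 CPM, F2rl1 (a protease-activated receptor) had 69.6 ± 2.3 and 61.5 ± 7.8 CPM (adjusted p = 0.0645, edgeR, but 0.0142 and 0.0476 without YAP5SA 1 or YAP5SA 4), and Lingo2 and Lingo3 had at most 5 reads per group. Cxcr4, Muc2, Spdef and Clca1 are named after their values were seen.

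Relatives with the same domains had log2 fold changes between -1.23 and -0.04 where they were tested. Among 7 other BRICHOS domain genes, 3 were tested, 2 fell and none rose (median log2 fold change -0.56), where 25.5% of all tested genes fell and 23.6% rose. Itm2b had 468.7 ± 34.5 and 455.4 ± 27.5 CPM (adjusted p = 0.593, edgeR), Itm2c fell from 147.2 ± 13.2 to 100.2 ± 6.2 CPM and Itm2a from 16.8 ± 1.2 to 7.18 ± 0.80 CPM, and Cnmd had 2 reads in all. Of 4 other trefoil domain genes in the table, only Gaa, the lysosomal acid glucosidase gene, was tested, and it fell from 36.9 ± 3.4 to 29.99 ± 2.95 CPM. Mgam had 37 and 8 reads, Sis 0 and 1, and Zp1 none.

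Of 22 genes reported to regulate gastrokine or trefoil factor genes, 20 were tested, 11 fell and 7 rose (median log2 fold change -0.50), where 25.5% of all tested genes fell and 23.6% rose. The 4 most abundant by mean over all 8 libraries had small changes: Foxa1 rose 1.14-fold (189.5 ± 10.4 to 216.7 ± 5.3 CPM), Stat3 fell from 144.2 ± 10.5 to 118.4 ± 5.0 CPM, and Atf4 and Xbp1 did not pass (adjusted p = 0.481 and 0.228, edgeR). This ranking, too, sets back genes that were lost in YAP5SA. Hnf4a fell from 130.7 ± 9.4 to 3.95 ± 0.58 CPM. Unlike Foxa1, Foxa2 fell from 16.9 ± 1.4 to 0.77 ± 0.24 CPM and Foxa3 from 40.3 ± 2.1 to 0.79 ± 0.24 CPM. Among GATA factor genes, Gata5 fell from 93.8 ± 4.6 to 0.216 ± 0.159 CPM, Gata4 from 77.3 ± 5.1 to 17.6 ± 2.6 CPM and Gata6 from 30.2 ± 4.3 to 18.4 ± 1.5 CPM. Spdef, a factor of mucous and goblet cells, fell from 16.8 ± 3.3 to 0.263 ± 0.189 CPM, while Foxq1, a factor of pit cells, rose from 56.9 ± 2.6 to 108.8 ± 5.5 CPM. Hnf4a, Foxa2, Foxa3, the GATA genes, Spdef and Foxq1 are named after their values were seen. Of 12 genes of the secretory machinery, 10 were tested, 7 fell and 1 rose (median -0.45). Pdia3, the most abundant of these disulfide isomerase and glycosyltransferase genes, had 1088 ± 62 and 1071 ± 25 CPM (adjusted p = 0.744, edgeR), Galnt3 fell from 241.0 ± 5.6 to 145.2 ± 7.4 CPM, and Pdia4 and Pdia6 were lower by 0.14 and 0.17 on the log2 scale, calls that were lost with library size scaling alone (adjusted p = 0.0719 and 0.0595, edgeR) and without YAP5SA 1 (0.0909 and 0.0722), for Pdia4 also without control 3 or YAP5SA 4 or with no filter (0.0524, 0.0544 and 0.0935), and for Pdia6 without control 1 (0.0941). Agr2, a disulfide isomerase needed for mucin folding and named after its values were seen, fell from 40.1 ± 6.5 to 1.13 ± 0.25 CPM.

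**Figure D4:**
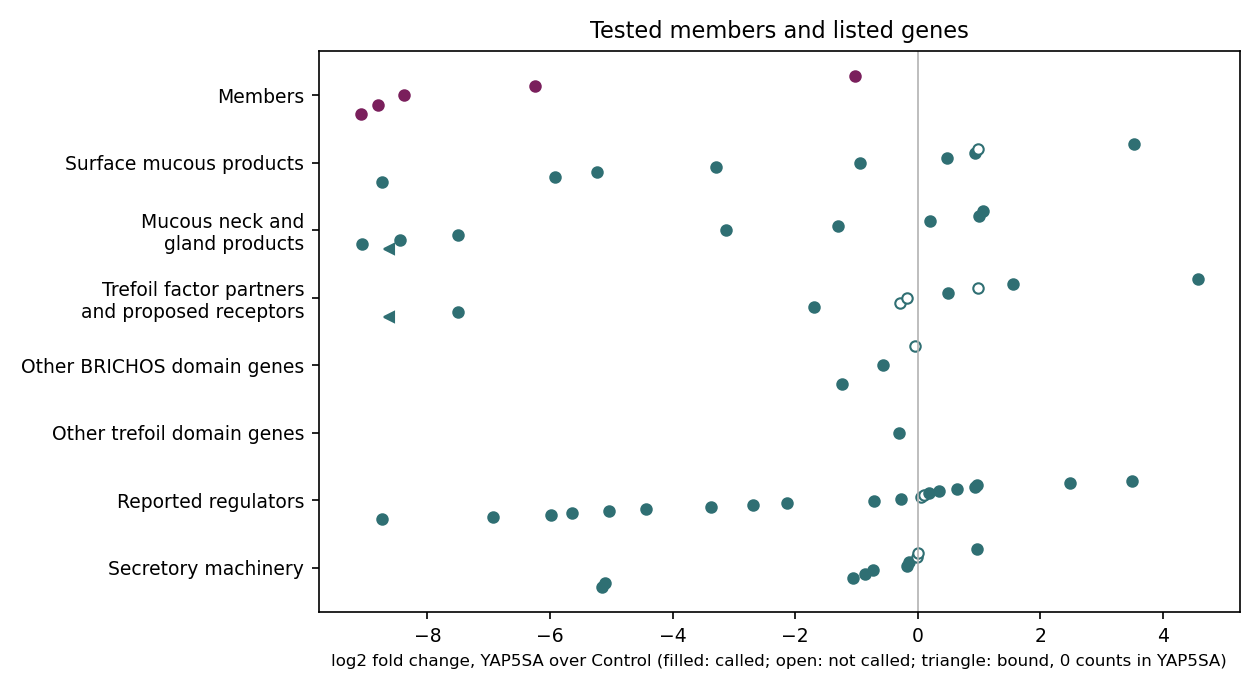
Log2 fold change of YAP5SA over control (horizontal axis) for each tested member and each tested gene of 7 lists, with filled points for called genes, open points for genes not called and triangles for A4gnt, which had 0 counts in YAP5SA and is drawn at its bound. The members lie at or below -1.02, while each list of 9 or more tested genes spans both sides of 0.

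Genes beside the members on the chromosomes went both ways. Of the 10 nearest tested genes around the gastrokine cluster (5 on each side), 3 fell and none rose, and of 10 around the trefoil cluster 3 fell and 4 rose. Over all tested genes 25.5% fell and 23.6% rose, so these counts do not set the neighbours apart. The tested gene next to Gkn1, Antxr1, an anthrax toxin receptor, fell from 2.20 ± 0.80 to 1.03 ± 0.30 CPM, and that beyond Gkn3, the receptor gene Prokr1, from 2.74 ± 1.16 to 1.62 ± 0.34 CPM (adjusted p = 0.0392, edgeR). The Prokr1 call was lost without control 1 or 3 or YAP5SA 1, 2 or 4 (adjusted p between 0.0601 and 0.195, edgeR). Without control 4, Nfu1 and Isy1 were also called lower (adjusted p = 0.0112 and 0.0449, edgeR), which made 5 of the 10 lower, and without YAP5SA 2 Gm5879 was called higher (0.0473). Gfpt1, an enzyme of hexosamine synthesis, fell from 369.8 ± 29.9 to 304.3 ± 7.7 CPM. Abcg1, a sterol exporter gene and the nearest tested gene on the side of Tff3, rose from 32.9 ± 3.9 to 83.6 ± 10.1 CPM, and Rsph1, the nearest tested gene on the side of Tff1, had 5.66 ± 1.31 and 5.67 ± 0.83 CPM (adjusted p = 0.962, edgeR). The largest change among these 20 neighbours was in Glp1r, the receptor for glucagon-like peptide, which fell from 4.72 ± 0.52 to 0.243 ± 0.127 CPM. Slc37a1, Pde9a and Ndufv3 rose 1.45-fold, 2.55-fold and 1.26-fold, and Btbd9 and Zfand3 fell by 0.51 and 0.26 on the log2 scale. Gm15318, annotated antisense to Tff1 and overlapping it, had 12 reads in controls and 2 in YAP5SA, and without a stated strand its reads and those of Tff1 cannot be told apart.

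**Figure D5:**
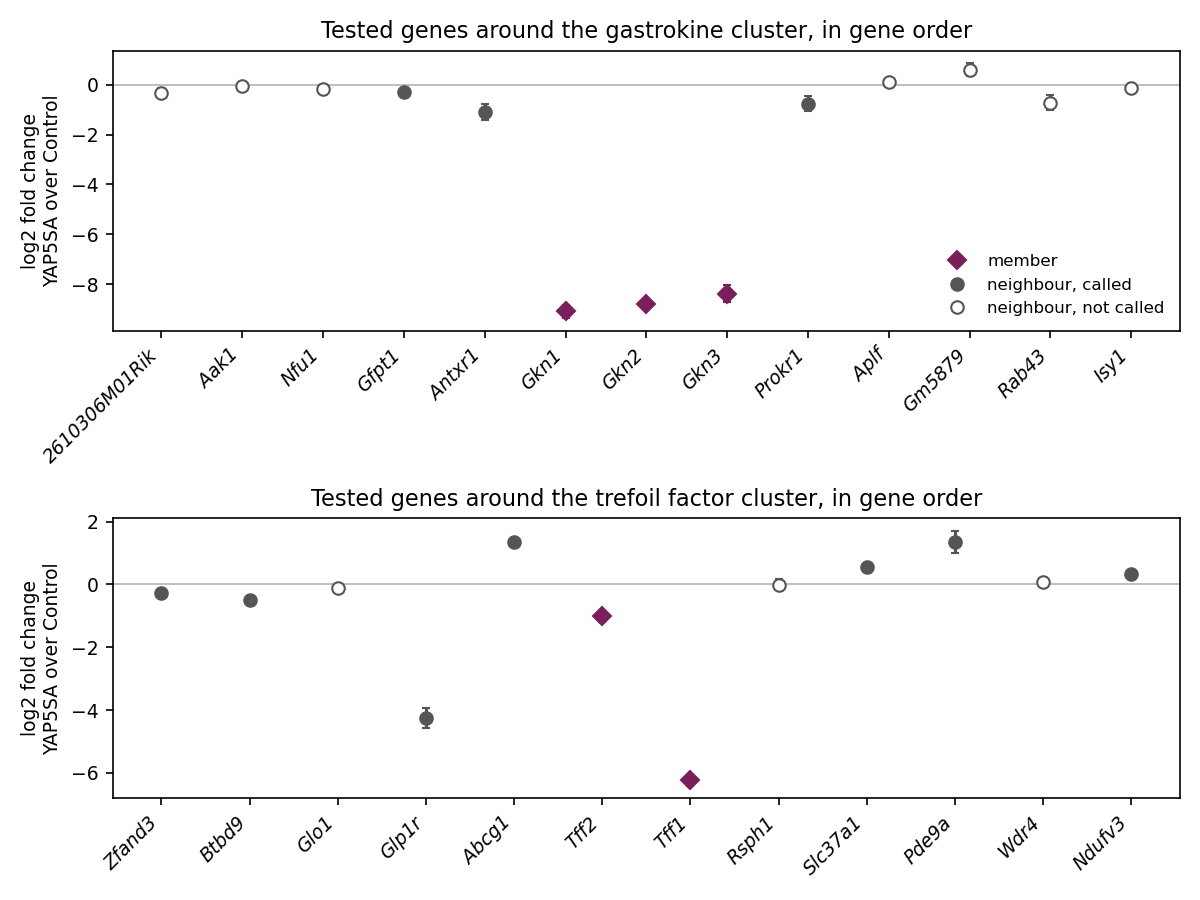
Log2 fold change ± SE of YAP5SA over control (vertical axis) for tested genes in their order along the chromosome (horizontal axis, not to scale), with members as purple diamonds and neighbours as grey circles, open where not called. In the upper panel the 3 gastrokines lie between -9.09 and -8.38 and their 10 neighbours between -1.09 and 0.59, and in the lower panel Tff1 lies at -6.24, Tff2 at -1.02 and Glp1r at -4.24. For Gkn1 and Gkn2, with few YAP5SA reads, the SE bars are narrower than the counting intervals given in the text.

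Genes with the pattern most like each member over the 8 libraries were found by the root mean square difference in log2 CPM after centring each gene, among genes within 2 log2 units of its mean level. Over 8 libraries in 2 groups this measure mainly reflects the difference between groups. For Gkn1 and Gkn2, with few or no reads in YAP5SA libraries, the log2 values there depended largely on the prior count. Genes with fewer reads still can therefore appear alike. For Tff1 the nearest was Ctse, the pit cell protease cathepsin E, at 0.221 (147.0 ± 9.3 to 2.41 ± 0.75 CPM), followed by AI506816 (0.291) and Ntng1 (0.304). For Gkn1 they were Myrf (0.253), Ugt2b34 (0.411) and Cdhr2 (0.505), for Gkn2 Sec16b (0.284), Cdhr2 (0.387) and Esrrg (0.435), and for Gkn3 Cblif (0.370), Ugt2b34 (0.423) and Gata5 (0.508). Sec16b had 1462 reads in controls and 0 in YAP5SA, and Cdhr2 had 1875 and 1. For Tff2 they were Eml6 (0.074), Rnf225 (0.124) and Ndrg2 (0.135), all with changes near 2-fold.

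Markers of other cell types are given here because some moved with the groups, and their part in the results above was not tested. Summed over 5 mesenchymal markers, levels were 1.52 to 3.85 CPM in controls and 0.497 to 1.35 CPM in YAP5SA, and over 4 erythroid markers 0.204 to 0.825 and 0.177 to 0.906 CPM. The 4 endothelial markers summed to 6.50 to 13.7 CPM in controls and 0.064 to 0.842 CPM in YAP5SA, in controls nearly all from Tek. The 4 immune markers summed to 19.6 to 39.1 and 9.66 to 10.4 CPM, mostly from Cd68, a lysosomal gene that fell, while Csf1r rose from 0.191 ± 0.074 to 1.49 ± 0.60 CPM. The 4 enteric neural markers summed to 1.2 to 2.09 and 0.497 to 1.1 CPM, with Sox10 at 0 reads in all libraries. Of 9 intestinal markers (19.8 to 26.5 and 3.86 to 6.24 CPM in sum, in controls mostly from Spdef), Atoh1, Cdx1 and Cdx2 had 0 reads in all libraries. Of the 3 that were tested, Muc2 rose and Spdef and Clca1 fell, where 23.6% of all tested genes rose and 25.5% fell. Of 5 squamous markers (95 to 146.1 and 895.4 to 1014 CPM in sum), Krt4 made up nearly all and was higher in YAP5SA, and the basal markers Krt5, Krt14 and Trp63 had 36, 8 and 2 reads in controls and 0, 2 and 0 in YAP5SA.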

How the data were processed

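RNA of 8 organoid libraries was measured. The deposited table holds read counts per gene, not normalized, and per the submitters' processing notes the authors used cutadapt, HISAT2 2.0.1 and HTSeq 0.6.1 with build mm9. The sources used here name no annotation release, counting options or strand, so gene coordinates are printed only for RefSeq promoters, with their own build. Rows without a gene name (2639, holding 0.19% to 0.22% of the counts) were left out, and rows sharing a symbol were summed. Genes passing edgeR's filterByExpr (14058) went through TMM scaling and a robust quasi-likelihood fit in edgeR 4.0.16 (R 4.3.3, genotype as the only term), with Benjamini-Hochberg adjustment and calls under 0.05. The SE of a fold change is its log2 size over the root of the F statistic, and it is too narrow where a group has few reads. Log2 values for ratios and likeness used a prior count of 2. Intervals are exact at 95%, and a group at 0 was set to 3 counts over the group. Permutation tests used scipy 1.17.1.

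The members and lists were chosen with earlier results of these data known. Named genes are the 6 members, the 4 genes of each list with the highest mean CPM, the nearest and all called neighbours, and the 3 genes most like each member. Others are marked in the text. Alternatives were DESeq2 1.42.0, no TMM, other filters, a stricter threshold, a replicate block and leaving out each library. The edgeR script was tested on simulated data with 48 to 50 tested genes changed at each fold size, far fewer than the 49.1% called here. It recovered 72% of 1.5-fold, 90% of 2-fold and 100% of 4-fold changes, and 7.73% of its calls were false.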

Additional observations from a re-analysis of the deposited data

Results flagged for a closer look

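Of 110 sets of 4 libraries of named genes, 10 held a library far from the other 3 of its group (its gap to the nearest was above Dixon's 95% critical value), which chance alone gives in about 1 in 20 sets. None of the sets of the 6 members was among them. In the controls, Psca had 266.8 CPM in control 2 against 260.6 to 260.9 in the others, Abcg1 had 38.7 CPM in control 4 against 30.4 to 31.7, Cdhr2 had 23.8 CPM in control 2 against 28.9 to 29.9, and Sec16b had 23.6 CPM in control 1 against 21.0 to 21.3. In the YAP5SA libraries, Antxr1 had 1.47 CPM in library 4 against 0.842 to 0.901, Zfand3 had 49.97 CPM in library 1 against 56.8 to 56.99, Slc37a1 had 42.4 CPM in library 3 against 34.9 to 35.99, and Gata5 had 0.453 CPM in library 1 against 0.118 to 0.166. Sis (0.064 CPM in library 3) and Cdhr2 (0.055 CPM in library 2) had a single read in YAP5SA.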

How the results depend on the processing

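All 5 tested members were called lower under each alternative run, namely DESeq2, library size scaling, either filter, a threshold of 0.01 (20.4% of all tested genes lower there), the replicate block and leaving out any library. Over these fits the log2 fold change ran from -9.65 to -8.69 for Gkn1, -9.15 to -8.57 for Gkn2, -8.72 to -8.17 for Gkn3, -6.44 to -6.10 for Tff1 and -1.14 to -0.96 for Tff2, with the highest adjusted p at 0.000259 (Tff2). The 7 pairs of members with different responses kept their direction without any 1 library and with a prior count of 0.5, but with 3 against 4 libraries the smallest exact p is 0.0571, so the number of pairs passing was 0 without each library in turn. Same-numbered libraries did not deviate together (correlations over genes -0.055, -0.079, 0.094 and 0.038), and not every library correlated best with its own number. The labels do not call them paired. With the replicate block, 6586 genes were called in place of 6899, and of the neighbours Prokr1 was lost (adjusted p = 0.0738, edgeR). Over all listed genes and over all 20 neighbours the number of calls stayed within 1.5 times in these fits, but beside the gastrokines alone the 3 lower calls became 5 without control 4, and with no filter 2 other trefoil domain genes were called lower in place of 1. Depth limits Gkn1, Gkn2 and Tff3 in YAP5SA, at 6, 7 and 0 reads over the group.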

Other observations

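Beyond the genes named above, further genes of the lists were seen in YAP5SA libraries at levels above the controls. The mucous cell products described above went both ways. Sult1c2, a sulfotransferase of the surface mucous list, rose from 4.82 ± 0.95 to 56.5 ± 6.3 CPM. Runx3, a transcription factor of gastric epithelium, rose from 0.154 ± 0.123 to 1.91 ± 0.49 CPM, and Klf4 rose from 21.9 ± 1.0 to 122.0 ± 3.6 CPM. Nkx6-3, a factor of gastric gland lineages, had 0 reads over the controls and 15 over the YAP5SA libraries and was too low to be tested. The choice of these genes was made with their values in view.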
